A study of Homo sapiens with 8 samples.

Results

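The cells described here were the IL8-high cells of the human line SUM159, derived from a triple-negative breast cancer, in the pre-treatment and DMSO single-cell libraries. They were selected on measured values: within each library, cells were ranked by IL8 UMIs (unique molecular identifiers, which count captured mRNA molecules) divided by the UMI total of the cell, and the highest 20% were set against the lowest 20%. This gave 212 IL8-high cells, 120 in pre-treatment and 92 in DMSO, and as many IL8-low cells, of 1061 cells without drug and 5738 in the series. IL8 itself was left out of every comparison of other genes. The pre-treatment library held cells taken before any selection, and the DMSO library held cells passaged in the vehicle. It belonged to the JQ1+paclitaxel experiment, whereas the palbociclib and JQ1+palbociclib libraries came from another. Cultures in DMSO and in drug had up to 18 passages. All cells carried a lentiviral DNA barcode library. Each library combined equal numbers of cells from parallel cultures, which cannot be told apart. The 6 other libraries came from cells selected in paclitaxel at 0.6 nM, palbociclib at 160 nM, JQ1 at 100 nM (2 libraries, JQ1-A and JQ1-B, from separate experiments), JQ1+paclitaxel and JQ1+palbociclib.

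IL8, now named CXCL8, is a secreted chemokine that attracts neutrophils through the receptors CXCR1 and CXCR2. Its gene is switched on by the transcription factor NF-kB together with AP-1 and C/EBP factors. The cytokine IL6 and the related chemokines CXCL1, CXCL2 and CXCL3 are NF-kB targets too. NF-kB is held in the cytoplasm by IkB proteins, and once active it also raises its own inhibitors, so that the response shuts itself off. Triple-negative breast cancer lines are known to secrete IL6 and IL8 without added stimulus.

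On GRCh37, the build of the files, IL8 lies on chromosome 4 (74606236 to 74609433, plus strand). CXCL1 starts 126 kb past its end, CXCL3 (74902306 to 74904524, minus strand) 293 kb and CXCL2 (74962757 to 74964913, minus strand) 353 kb past it. IL6 lies on chromosome 7 (22765503 to 22771621) and NFKBIA on chromosome 14 (35870285 to 35873955). The 160 bases before the annotated start of IL8 and of 4 genes that went with it are printed because these cells were chosen on IL8 mRNA and the 5 promoters carry a related motif. They are RefSeq sequences on another build, GRCh38.p14. Capitals mark matches to the NF-kB consensus motif (kappa-B) or to the longest stretch shared by the IL8, CXCL2 and CXCL3 promoters.
IL8, chr4:73740409-73740568, plus strand: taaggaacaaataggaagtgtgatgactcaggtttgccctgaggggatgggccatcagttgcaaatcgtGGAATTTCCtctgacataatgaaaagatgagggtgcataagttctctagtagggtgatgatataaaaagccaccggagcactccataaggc
CXCL2, chr4:74099196-74099355, minus strand: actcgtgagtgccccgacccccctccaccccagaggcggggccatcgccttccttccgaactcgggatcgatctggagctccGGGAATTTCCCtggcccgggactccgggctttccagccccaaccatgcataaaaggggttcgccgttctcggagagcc
CXCL3, chr4:74038690-74038849, minus strand: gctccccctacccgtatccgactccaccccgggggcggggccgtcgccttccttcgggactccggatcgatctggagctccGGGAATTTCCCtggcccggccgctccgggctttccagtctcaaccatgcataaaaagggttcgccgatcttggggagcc
IL6, chr7:22727040-22727199, plus strand: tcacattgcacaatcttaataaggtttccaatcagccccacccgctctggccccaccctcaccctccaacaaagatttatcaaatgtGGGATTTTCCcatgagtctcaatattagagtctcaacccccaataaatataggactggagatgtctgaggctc
NFKBIA, chr14:35404750-35404909, minus strand: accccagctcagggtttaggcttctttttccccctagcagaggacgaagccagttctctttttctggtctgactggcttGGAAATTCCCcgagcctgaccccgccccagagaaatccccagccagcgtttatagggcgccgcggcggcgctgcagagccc

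The stretch shared by the promoters of IL8, CXCL2 and CXCL3 was GGAATTTCC, at -91 to -83 from the start in IL8, -77 to -69 in CXCL2 and -78 to -70 in CXCL3. NFKBIA held it on the other strand, at -81 to -73. It was found after the promoters had been read, and 0.428% of 27305 promoters in the table held it within 250 bases before the start. The kappa-B consensus lay at -73 to -64 in IL6, -78 to -69 in CXCL2, -79 to -70 in CXCL3 and, on the other strand, -81 to -72 in NFKBIA. IL8 had no match to it in the printed bases, and 9.57% of all promoters held that consensus. The IL8 promoter also held the AP-1 motif TGANTCA at -137 to -131, which 6.6% of promoters held, and the TATA box TATAAA at -31 to -26, which 7.17% held. IL6 held the C/EBP motif TTGCNNAA at -155 to -148, against 9.13% of promoters. Motifs were searched on both strands apart from the TATA box, and a match describes letters, not bound factors.

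The ranking separated the classes widely by construction. Summed over the class, IL8 stood at 2629.9 CPM (UMIs scaled to a total of 1000000) in IL8-high and 35.3 CPM in IL8-low cells of pre-treatment, and at 2241 and 41.3 CPM in DMSO. The last cell inside the high class had 1493 CPM and the next outside 1469 CPM in pre-treatment, and 1434 and 1403 CPM in DMSO, so the limit ran through a continuous range. The lower limit lay at 98.7 and 102 CPM in pre-treatment and at 138 and 143 CPM in DMSO. The high class held 56.9% of all IL8 UMIs of pre-treatment and 49.6% of those of DMSO, and no single cell gave more than 6.49% of the class. Cells without an IL8 UMI numbered 59 in pre-treatment and 43 in DMSO, all of them in the low class.

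**Figure D1:**
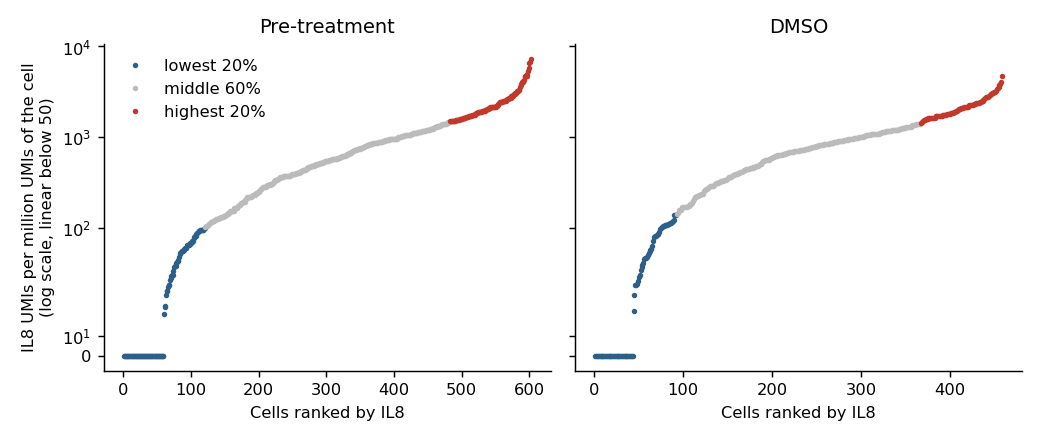
IL8 level of each cell (CPM of the cell, log scale that is linear below 50) against its rank in the pre-treatment and the DMSO library, with the lowest 20% of cells in blue, the middle in grey and the highest 20% in red. The red cells begin at 1493 CPM in pre-treatment and 1434 CPM in DMSO, with no gap from the grey cells below them.

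As a description, the molecules of every cell were split at random, part against part of equal size. When cells were ranked on 1 part and IL8 was measured on the other, IL8 was 36.3 times higher in the high class of pre-treatment (2494 against 68.7 CPM) and 30.9 times higher in DMSO (2106 against 68.1 CPM). Of these high classes, 87.5% and 90.2% were cells of the original class, an overlap that is partly fixed because the original rank contains the part ranked. Median depth was similar: the median cell had 20602.5 UMIs in the IL8-high and 22731.5 in the IL8-low class of pre-treatment, and 20749 and 21550.5 in DMSO. The deepest cells lay more often in the low class. Cells above the 95th percentile of UMIs numbered 4 in IL8-high and 11 in IL8-low cells of pre-treatment, and 2 and 6 in DMSO. The median mitochondrial share was 3.87% and 3.76% in pre-treatment and 3.56% and 3.80% in DMSO. No cell barcode was shared by the pre-treatment and DMSO libraries, and 13 of 5725 barcodes occurred in 2 or more of the 8 libraries. Of 14 markers of leukocytes, endothelium, stroma, liver and red cells, 9 were in the table and 0 reached 20 CPM in both libraries. DCN stood at 26.2 CPM in pre-treatment and 7.81 in DMSO, CD68 at 10.2 and 12.1, and PTPRC at 0.355 and 0.471. Since all cells are of 1 line, no cell type without IL8 was present to measure free RNA, and its part in the levels was not tested.

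Genes were compared between the classes in each library by itself, over 4381 genes with at least 20 CPM in both libraries. With 1 library per condition there is no test of these ratios, and the intervals given are exact 95% intervals that cover counting error only. A ratio of at least 1.5 was reached by 83 genes higher (1.89%) and 60 lower (1.37%) in IL8-high cells of pre-treatment, and by 100 higher (2.28%) and 91 lower (2.08%) in those of DMSO. Both libraries gave this ratio for 30 higher genes (0.685%) and 29 lower genes (0.662%), called agreeing genes here. The 30 were 36.1% of the higher genes of pre-treatment and 30% of those of DMSO, and the 29 were 48.3% and 31.9% of the lower genes. One gene alone passed the ratio in opposite directions, NUPR1, named after its values were seen, a stress-response gene at 71.6 against 38.5 CPM in pre-treatment and 26 against 46.7 CPM in DMSO. Across the 4381 genes, which are not independent and share the class totals, the log2 ratios of the libraries had a Pearson r of 0.358 and a Spearman rho of 0.210, given as a description. The median gene stood at a log2 ratio of 0.0019 in pre-treatment and 0.013 in DMSO.

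**Figure D2:**
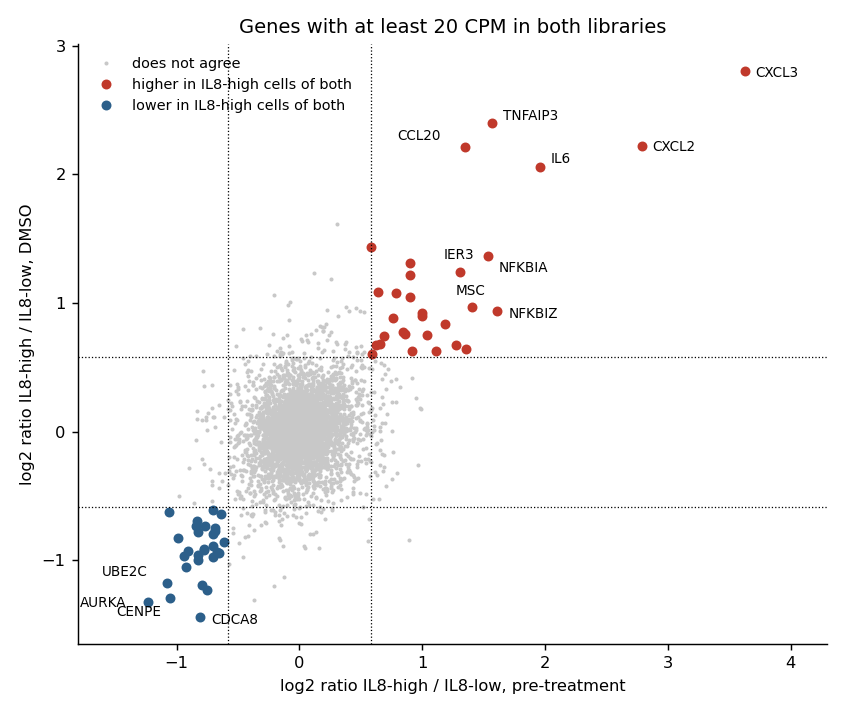
Log2 ratio of IL8-high to IL8-low cells in pre-treatment (x axis) and DMSO (y axis) for 4381 genes, 1 point per gene, with the 30 agreeing higher genes in red, the 29 agreeing lower genes in blue and dotted lines at a ratio of 1.5. CXCL3, CXCL2, IL6, TNFAIP3 and CCL20 stand apart from the other genes at the upper right, and AURKA, UBE2C, CENPE and CDCA8 are among the genes at the lower left.

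Other secreted signals led the higher genes. IL6, the second marker of these cells and a cytokine of the acute-phase response, stood at 154 CPM in IL8-high and 39.5 CPM in IL8-low cells of pre-treatment, a ratio of 3.89 (3.17 to 4.80). In DMSO it stood at 159 and 38.1 CPM, a ratio of 4.17 (3.27 to 5.36). The label therefore held for its second marker in both libraries. Single cells overlapped all the same. Per cell, IL6 ran from 0 over a median of 94.1 to 911 CPM in the IL8-high cells of pre-treatment and from 0 over a median of 0 to 712 CPM in the IL8-low cells. With every cell thinned to 10000 UMIs, an IL6 UMI was found in 68 of 117 IL8-high cells of pre-treatment (58.1%, exact 95% interval 48.6 to 67.2) and in 19.7% of IL8-low cells. In DMSO these shares were 57.8% and 23.6%. Without thinning they were 70.8% and 34.2% in pre-treatment and 71.7% and 42.4% in DMSO.

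The neutrophil-attracting chemokines gave the largest ratios. CXCL3 stood at 279.7 against 22.7 CPM in pre-treatment, a ratio of 12.3 (9.65 to 16.0), and at 123 against 17.7 CPM in DMSO, a ratio of 6.97 (4.96 to 10.0). CXCL2 stood at 907 against 131 CPM in pre-treatment (ratio 6.90, 6.21 to 7.68) and at 845 against 181 CPM in DMSO (4.67, 4.19 to 5.22). CXCL2 was nearly universal in the high class: after thinning it had a UMI in 98.3% of IL8-high and 51.3% of IL8-low cells of pre-treatment, and in 96.7% and 53.9% of those of DMSO. CXCL3 was found in fewer cells, 53.8% against 17.9% in pre-treatment and 41.1% against 18.0% in DMSO. CXCL1, CXCL2 and CXCL3 are close copies of one another, and how reads that fit several of them were counted could change their separate values. CCL20, which attracts cells bearing the receptor CCR6, stood at 68.6 against 26.9 CPM and at 98.7 against 21.3 CPM. A single cell gave 21.1% of the CCL20 UMIs of the pre-treatment high class, and without it the log2 ratio there was 1.01 rather than 1.35.

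Of the list of secreted cytokines and chemokines, 27 of 31 genes besides IL8 were in the table and 6 reached 20 CPM. Of these, 4 agreed higher (CXCL3, CXCL2, IL6 and CCL20) and 0 lower, against 0.685% and 0.662% of all genes. The median log2 ratio of the 6 was 1.66 in pre-treatment and 2.14 in DMSO. IL18 stood at 81.9 against 70.6 CPM in pre-treatment and 96.3 against 87.5 CPM in DMSO, and IL32, a proinflammatory cytokine, at 262 against 184 CPM and 157 against 136 CPM. These were under the ratio of 1.5 in both libraries. Of the scarcer cytokines, those given next were named after their values were seen. CXCL1 had 77 UMIs in IL8-high and 5 in IL8-low cells of pre-treatment and 67 and 8 in DMSO, the growth factor CSF2 had 83 and 22 and then 41 and 7, and IL1B had 28 and 6 and then 38 and 4. CSF1, a macrophage growth factor, went both ways, with 56 and 31 and then 35 and 47, and so did GDF15, with 93 and 32 and then 14 and 21. CCL5 had no UMI in either high class, 2 in the low class of pre-treatment and 15 in that of DMSO, all 15 from 1 cell.

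Regulators and targets of NF-kB were also among the higher genes. NFKBIA, the IkB protein that retains NF-kB in the cytoplasm, stood at 492 against 169.9 CPM in pre-treatment (ratio 2.90, 2.61 to 3.21) and at 453 against 175 CPM in DMSO (2.58, 2.29 to 2.92). TNFAIP3, the ubiquitin-editing enzyme A20 that ends NF-kB signalling, stood at 56.8 against 19.1 CPM (2.97, 2.19 to 4.09) and at 66.8 against 12.7 CPM (5.26, 3.48 to 8.21). IER3, a survival gene of the early response, was the most abundant of the group, at 1309 against 529 CPM and 1524 against 643 CPM. NFKBIZ, a nuclear co-factor needed for IL6 and other secondary targets, stood at 51.4 against 16.8 CPM and 41.8 against 21.8 CPM, and ZC3H12A, an RNase that degrades IL6 mRNA, at 41.2 against 18.1 CPM and 27.5 against 15.4 CPM.

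The subunit NFKB1 stood at 32.0 against 17.2 CPM in pre-treatment and 34.9 against 15 CPM in DMSO, whereas its partner RELA did not reach the ratio, at 31.3 against 30.4 CPM and 23.6 against 30.8 CPM. Of the 30 listed regulators and targets, 15 reached 20 CPM, of which 8 agreed higher (with TNFAIP2 and IRF1) and 0 lower. Over all genes 0.685% agreed higher and 0.662% lower. The median log2 ratio of the 15 was 0.63 in pre-treatment and 0.76 in DMSO. TNFAIP2 in DMSO rested partly on 1 cell, which gave 18.1% of its UMIs, and without it the log2 ratio was 0.35. TNIP1, TNIP2, BIRC2, SOD2, RIPK2 and PTX3 did not agree. Among them PTX3, a secreted pattern recognition protein, had 68.2 against 55.0 CPM in pre-treatment and 65.3 against 21.3 CPM in DMSO. SOD2, the mitochondrial superoxide dismutase, had 397 against 261 CPM and 242 against 196 CPM.

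Of the receptors and transducers of these cytokines, 10 reached 20 CPM and 0 agreed in either direction, a count that the background of 0.685% and 0.662% also gives for so few genes. Their median log2 ratios were 0.06 and 0.08. OSMR, JAK1 and IFNGR2 were the members with the largest values of 1 sign. OSMR stood at 24.8 against 29.1 CPM in pre-treatment and 29.0 against 36.7 CPM in DMSO.

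Immediate early genes are transcribed within minutes of a stimulus. Of 21 at 20 CPM, 4 agreed higher (IER2, EGR1, ATF3 and KLF6), against 0.685% of all genes, and 0 lower. Their medians were 0.31 and 0.42, and 16 were above a ratio of 1 in both libraries and 3 below it in both. EGR1, a zinc finger factor induced by ERK signalling, stood at 126 against 78.3 CPM and 184 against 110.2 CPM. ATF3 stood at 40.8 against 16.8 CPM in pre-treatment, but 1 cell held 33.6% of its UMIs in that class, and without it the log2 ratio was 0.68 rather than 1.28. In DMSO the log2 ratio of ATF3 without its richest cell was 0.54, under the limit. KLF6 without its richest cell was under the limit in both libraries (0.53 and 0.54). DUSP6, a phosphatase that dampens ERK, was the 1 agreeing gene of 8 in the EGFR and MAPK list, a count the background share cannot tell apart from 0. It stood at 39.6 against 23.0 CPM and 59.4 against 28.1 CPM. The matricellular genes CYR61 (310 against 166 CPM and 551 against 266 CPM) and CTGF (89.9 against 49.5 CPM and 149 against 88.4 CPM), well-known YAP targets, also agreed higher, but the median of the 10 measured YAP targets was -0.01 and -0.03. One cell gave 17.8% of the CTGF UMIs of the pre-treatment high class, and without it the log2 ratio there was 0.58 rather than 0.86, just under the limit. NT5E of that list agreed lower, so 2 of the 10 agreed higher and 1 lower, against 0.685% and 0.662% of all genes.

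The remaining agreeing higher genes were MSC, HIST1H4C, CREB5, STC1, MGP, GADD45A, SLBP, PPP1R15A, ALDH9A1, SOX4 and CSRNP1. MSC, a transcriptional repressor of the basic helix-loop-helix family, stood at 35.1 against 13.3 CPM and 49.6 against 25.4 CPM. HIST1H4C, a replication-dependent histone H4 gene, stood at 1599 against 798 CPM and 1519 against 802 CPM, and SLBP, which binds the stem-loop of histone mRNA, at 128 against 81.6 CPM and 115 against 72.1 CPM. Histone genes are a family of near-identical coding sequences, so the counts of 1 member are uncertain. GADD45A, a DNA damage response gene, had 26.3% of its UMIs in the pre-treatment high class from 1 cell, and without it the log2 ratio was 0.60 rather than 1.04. CSRNP1 was just inside the limit in pre-treatment, at 24.8 against 16.5 CPM, and at 36.8 against 13.6 CPM in DMSO.

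Without the richest cell of the class with more UMIs, 9 of the 30 higher and 8 of the 29 lower genes fell under the limit in a library. The middle of the range followed the ends for the leading genes. When all cells of a library were put into 5 equal bins by IL8, IL6 stood at 39.5, 57.8, 96.0, 118 and 154 CPM from the lowest to the highest bin of pre-treatment and at 38.1, 64.5, 75.4, 112 and 159 CPM in DMSO. CXCL2 ran from 131 over 244, 466 and 535 to 907 CPM in pre-treatment. Among the 30 agreeing higher genes, 11 were ordered across all bins in pre-treatment, 12 in DMSO and 7 in both. Of the 29 lower genes 5, 4 and 1 were.

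**Figure D3:**
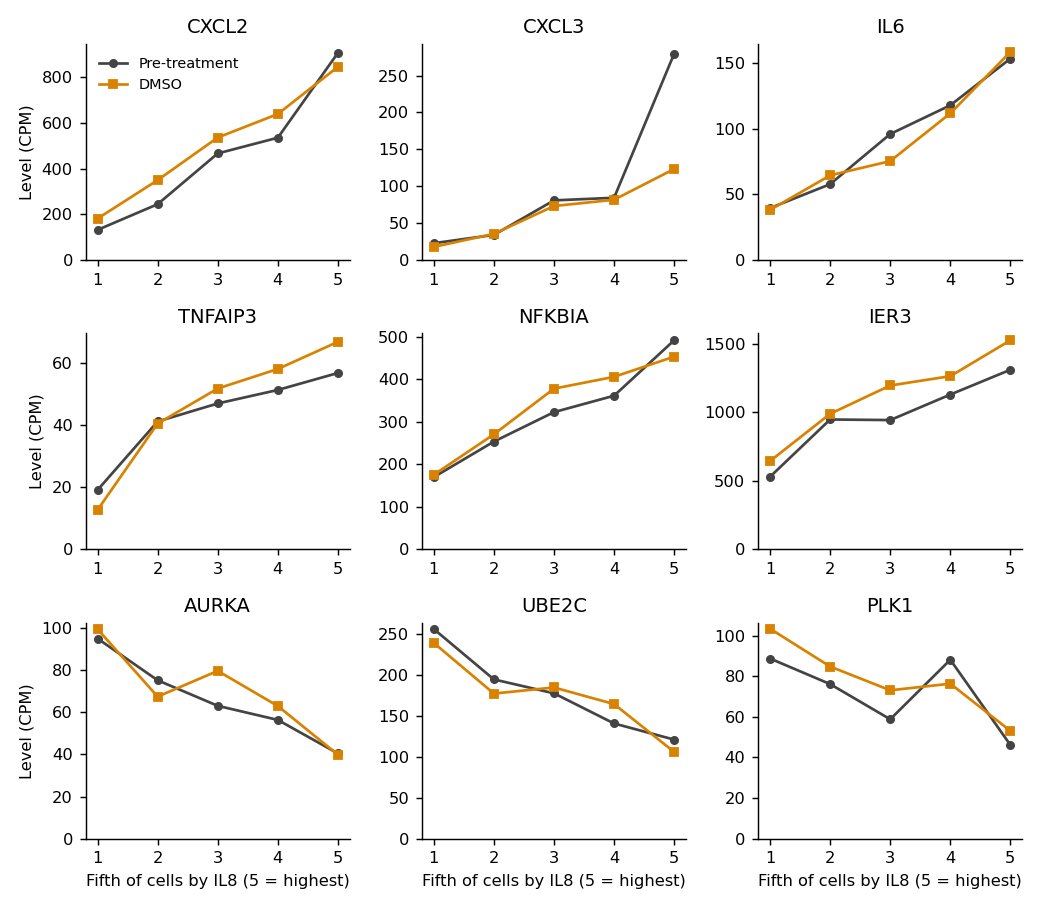
Level (CPM, y axis from 0) of 9 genes in 5 equal bins of cells ordered by IL8 from lowest to highest, with pre-treatment as dark circles and DMSO as orange squares. CXCL2, CXCL3, IL6 and NFKBIA climb through every bin of both libraries, whereas AURKA, UBE2C and PLK1 are lower in the highest than in the lowest bin.

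IL8-high cells were not uniform among themselves. Of the 5 genes CXCL2, CXCL3, IL6, TNFAIP3 and CCL20, after thinning, 4 or more had a UMI in 34 of 117 IL8-high cells of pre-treatment (29.1%) and 30 of 90 of DMSO (33.3%), against 1 of 117 and 3 of 89 IL8-low cells. All 5 were found in 11 and 12 IL8-high cells and in 0 IL8-low cells of either library. At the other end, 16 and 12 IL8-high cells had a UMI of 1 of the genes alone. Divided at its own middle by IL8, the high class had 192 CPM of IL6 in its upper and 110 in its lower part in pre-treatment, and 194 and 123 CPM in DMSO. TNFAIP3 had 61.2 and 51.8 CPM in pre-treatment but 61.3 and 72.4 CPM in DMSO, so it did not follow IL8 within the class in both.

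Genes of the G2/M list, which act in mitosis, were 12 of the 29 agreeing lower genes. AURKA, the kinase that matures centrosomes, stood at 40.4 CPM in IL8-high and 94.8 CPM in IL8-low cells of pre-treatment, a ratio of 0.426 (0.338 to 0.534), and at 39.8 and 99.3 CPM in DMSO, 0.401 (0.307 to 0.519). UBE2C, the ubiquitin-conjugating enzyme of the anaphase-promoting complex, stood at 121 against 256 CPM and 106 against 239 CPM. PLK1, a kinase of mitotic entry and exit, stood at 46.1 against 88.7 CPM and 53.1 against 103 CPM. The kinetochore motor CENPE (28.6 against 59.2 CPM and 24.1 against 58.9 CPM), the cohesin protector SGOL2 (22.9 against 43.4 CPM and 32.4 against 67.1 CPM) and CDCA8, a subunit of the chromosomal passenger complex (18.3 against 32.0 CPM and 14.2 against 38.5 CPM), had the same direction. CDCA3, FAM83D, KIF20B and KIF23 completed the 10 with the largest differences. Outside mitosis, the lower genes included the integrin ITGA2 and the cancer-testis antigen CTAG2. Without the richest cell of the IL8-low class, the log2 ratio of CTAG2 in pre-treatment was -0.44 rather than -0.75.

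The G2/M list had 42 genes at 20 CPM, of which 0 agreed higher, and 37 were below a ratio of 1 in both libraries, as were 27.6% of all 4381 genes. Their medians were -0.44 and -0.51. Of the 42 genes 12 agreed lower, against 0.662% of all genes. That count became 7 after thinning and 8 when cells were ranked on a random part of the UMIs. It became 5 with classes of 30% and 2 when ranked within phase, which is itself called from this list. The count rose to 17 with classes of 10% and to 16 with all cells without an IL8 UMI as the low class. Under the other settings it stayed between 11 and 13. Of 23 S-phase genes, 1 (SLBP) agreed higher, which the background share cannot tell apart from 0, and 18 were above 1 in both, as were 30.1% of all genes. Their medians were 0.26 and 0.43. The share of cells with a UMI differed between genes: a UBE2C UMI was found after thinning in 54.7% of IL8-high and 56.4% of IL8-low cells of pre-treatment and in 53.3% and 58.4% of those of DMSO, whereas AURKA was found in 24.8% and 41.0%, and in 26.7% and 43.8%. Of the 29 lower genes, 25 matched a promoter, and 36% of these held TTTGAA, the core of the cell cycle homology region, within 250 bases before the start, against 13.6% of all promoters. That motif was added after the lower genes had been seen. The kappa-B consensus was in 12% of them. Only 23 of the 30 higher genes matched a promoter, under the 80% needed, and no share is given for them.

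Called cell cycle phase moved with the class in pre-treatment and DMSO. It was scored on the S and G2/M lists above, which hold SLBP and 12 of the 29 lower genes. The phase shares therefore partly restate those genes. Called from list scores on thinned cells, S phase took 52.1% of IL8-high cells (exact 95% interval 42.7 to 61.5) and 31.6% of IL8-low cells (23.3 to 40.9) in pre-treatment, and 61.1% (50.3 to 71.2) and 31.5% (22.0 to 42.2) in DMSO. G2/M took 38.5% (29.6 to 47.9) and 47.0% (37.7 to 56.5) in pre-treatment. In DMSO it took 18.9% (11.4 to 28.5) and 49.4% (38.7 to 60.2). These intervals treat the cells of a pooled library as independent. They leave out the spread between cultures and do not test the difference between the classes. G1 took 9.40% and 21.4% in pre-treatment and 20% and 19.1% in DMSO, so the libraries did not share a direction there. In the drug libraries the S-phase shares of IL8-high and IL8-low cells were 12.8% and 21.2% in paclitaxel, 22.6% and 21.5% in JQ1-A and 29.3% and 27.6% in JQ1+paclitaxel. They were 31.3% and 28.1% in palbociclib, 30.7% and 27.2% in JQ1-B and 39.3% and 27.9% in JQ1+palbociclib. On these thinned cells IL8-high cells had the lower share in paclitaxel and the higher share in the other 5. On all UMIs the direction turned in paclitaxel (36% and 34.7%) and in JQ1+paclitaxel (28.7% and 29.5%). For G2/M on thinned cells the shares were 16.4% and 34.4% in palbociclib and 13.8% and 29.5% in JQ1+palbociclib. They were 56.8% and 55.5% in paclitaxel, 31.6% and 30% in JQ1-A, 35.5% and 32.5% in JQ1-B, and 27.6% and 26% in JQ1+paclitaxel, and in these 4 libraries IL8-high cells did not have the lower share. These differences were not tested. On all UMIs without drug, S phase took 63.3% and 37.5% in pre-treatment and 63.0% and 39.1% in DMSO. Summed over the cells of a phase called on all UMIs, IL8 stood at 1020 CPM in S-phase, 864 in G1 and 677 in G2/M cells of pre-treatment. In DMSO it stood at 1016, 837 and 654 CPM. The median cell of pre-treatment had 647 CPM in S phase, 391 in G1 and 499 in G2/M, so by cell G1 was lowest there. In DMSO the medians were 822, 671 and 600 CPM.

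**Figure D4:**
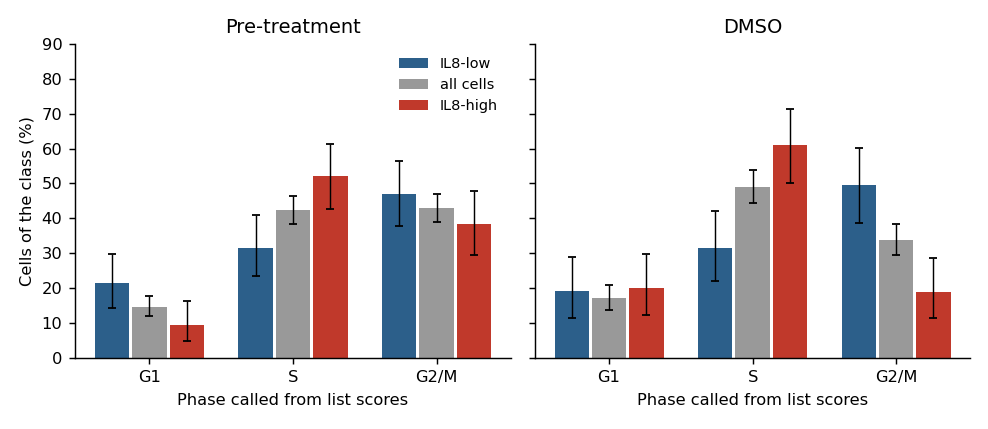
Share of cells (%, y axis from 0) called G1, S or G2/M in IL8-low (blue), all (grey) and IL8-high cells (red) of pre-treatment and DMSO after thinning to 10000 UMIs, with exact 95% binomial intervals as bars. S phase takes 52.1% and 61.1% of IL8-high cells against 31.6% and 31.5% of IL8-low cells. The bars treat cells as independent and leave out the spread between cultures.

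Since phase moved with the class, cells were also ranked by IL8 within each phase. Of the 30 higher genes 23 still agreed, among them CXCL3 (log2 ratios of 3.76 and 3.13), IL6 (2.01 and 2.35) and NFKBIA (1.51 and 1.33). HIST1H4C kept 0.84 and 0.80, while SLBP stood at 0.43 and 0.35 and no longer agreed. Of the others lost, DUSP6 stood at 0.36 and 1.09, EGR1 at 0.75 and 0.48 and ATF3 at 1.04 and 0.35. SOX4 (1.12 and 0.49), KLF6 (0.56 and 0.46) and CSRNP1 (0.52 and 1.28) had ratios close to those before and fell short of the limit in at least 1 library. Of the 29 lower genes 3 still agreed, AURKA (-0.89 and -0.69), CENPE (-0.63 and -0.70) and SGOL2 (-0.71 and -0.61). Of the 12 lower genes on the G2/M list 2 were kept. That list defines the phase, so the loss of its genes is partly built into this ranking, as is that of SLBP. UBE2C stood at -0.81 in pre-treatment and -0.42 in DMSO. NT5E (-0.54 and -0.73), DLGAP4 (-0.72 and -0.57) and ITGA2 (-0.56 and -0.68) missed the limit narrowly in 1 library. Whether higher and lower genes differ in what was retained was not tested.

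The 6 drug libraries, which had no part in choosing the cells or the agreeing genes, gave a test of the same contrast. Cells of each were ranked by IL8 in the same way, UMIs were summed per class, and edgeR's quasi-likelihood test was fitted with the library as a block to the 6557 genes whose mean over these libraries reached 10 CPM. IL8 was scarcer there: the high class stood between 361 CPM in paclitaxel and 1699 CPM in palbociclib, and in all but palbociclib every cell of the low class had no IL8 UMI and was taken in file order among those without. With Benjamini-Hochberg adjustment, 143 genes were called higher (2.18%) and 51 lower (0.778%) in IL8-high cells at an adjusted p under 0.05. Of the 30 agreeing higher genes, 29 were called higher, and 25 were higher in 6 of 6 libraries, against 4.35% of all genes. Their median log2 fold change was 0.63, against 0.0042 for all genes. The exception was ALDH9A1, an aldehyde dehydrogenase, at -0.08 ± 0.09 (SE, adjusted p = 0.741), higher in 3 of 6 libraries.

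CXCL3 gave the largest fold change of the 30, 3.09 ± 0.16 (SE, adjusted p = 1.7e-14), followed by CXCL2 at 2.77 ± 0.12 (adjusted p = 4.4e-16). TNFAIP3 rose by 2.05 ± 0.16 (adjusted p = 6.9e-10), NFKBIA by 1.38 ± 0.07 (1.7e-14) and NFKBIZ by 1.36 ± 0.12 (5.4e-09), each in 6 of 6 libraries. IL6 rose by 1.27 ± 0.09 (adjusted p = 7.3e-11). By library, its log2 ratio was 1.75 in JQ1-A, 1.66 in the JQ1+paclitaxel library, 1.22 in palbociclib, 1.21 in paclitaxel, 0.97 in JQ1-B and 0.76 in JQ1+palbociclib, all under the 1.96 and 2.06 of the cells without drug. The measures are not quite alike. Ratios by drug library had a small constant added to the CPM of both classes, and those without drug did not. Whether the drug libraries differ from those without drug in this ratio was not tested. HIST1H4C, at 0.36 ± 0.07 (adjusted p = 0.00165), was higher in 5 of 6 libraries, and SLBP, at 0.24 ± 0.07 (adjusted p = 0.0497), lay at the threshold. Some genes that did not agree without drug were called here, among them PTX3 at 1.60 ± 0.18 (adjusted p = 1.05e-06), COL1A1 at 1.0 ± 0.10 (9.4e-08) and SOD2 at 0.53 ± 0.06 (7.8e-07). By list, 5 of 7 cytokines, 11 of 19 NF-kB genes and 14 of 28 immediate early genes were called higher and 0 lower. Other lists had calls too: 7 of 18 collagens, laminins and integrins, 5 of 15 interferon-stimulated genes and 3 of 14 EGFR and MAPK genes were higher. So were 3 of 13 YAP targets and 3 of 13 epithelial and mesenchymal genes, and 0 genes of these lists were lower. Of 18 NRF2 targets 0 were called higher and 2 lower. Over all genes tested, 2.18% were called higher and 0.778% lower.

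Of the 29 agreeing lower genes, 9 were called lower (AURKA, UBE2C, CENPE, PLK1, TOP2A, KNSTRN, CCNB1, ARL6IP1 and CKS2), 0 were called higher, and 4 were lower in 6 of 6 libraries, against 3.17% of all genes. Their median log2 fold change was -0.34. ARL6IP1 fell by 0.57 ± 0.08 (adjusted p = 3.9e-05), CCNB1, the cyclin of mitotic entry, by 0.54 ± 0.12 (0.00867), and AURKA by 0.47 ± 0.11 (0.0148). By library, the median of the 29 genes was -0.81 in palbociclib and -0.56 in JQ1+palbociclib. It was -0.36 in the JQ1+paclitaxel library, -0.15 in JQ1-A, -0.03 in JQ1-B and -0.00 in paclitaxel. AURKA stood at -1.24 in JQ1+palbociclib and -0.09 in paclitaxel. The differences between libraries were not tested. Of the G2/M list, 16 of 51 genes were called lower, against 0.778% of all genes. Of the S-phase list, 2 of 29 were called higher, against 2.18% of all genes. The count of lower genes over all genes depended on single libraries, with 107 without paclitaxel, 33 without JQ1+paclitaxel, 29 without palbociclib and 24 without JQ1+palbociclib, and of the 29 lower genes 13, 6, 6 and 5 were then called. Ranked within phase, 28 of the 30 higher and 8 of the 29 lower genes were called.

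**Figure D5:**
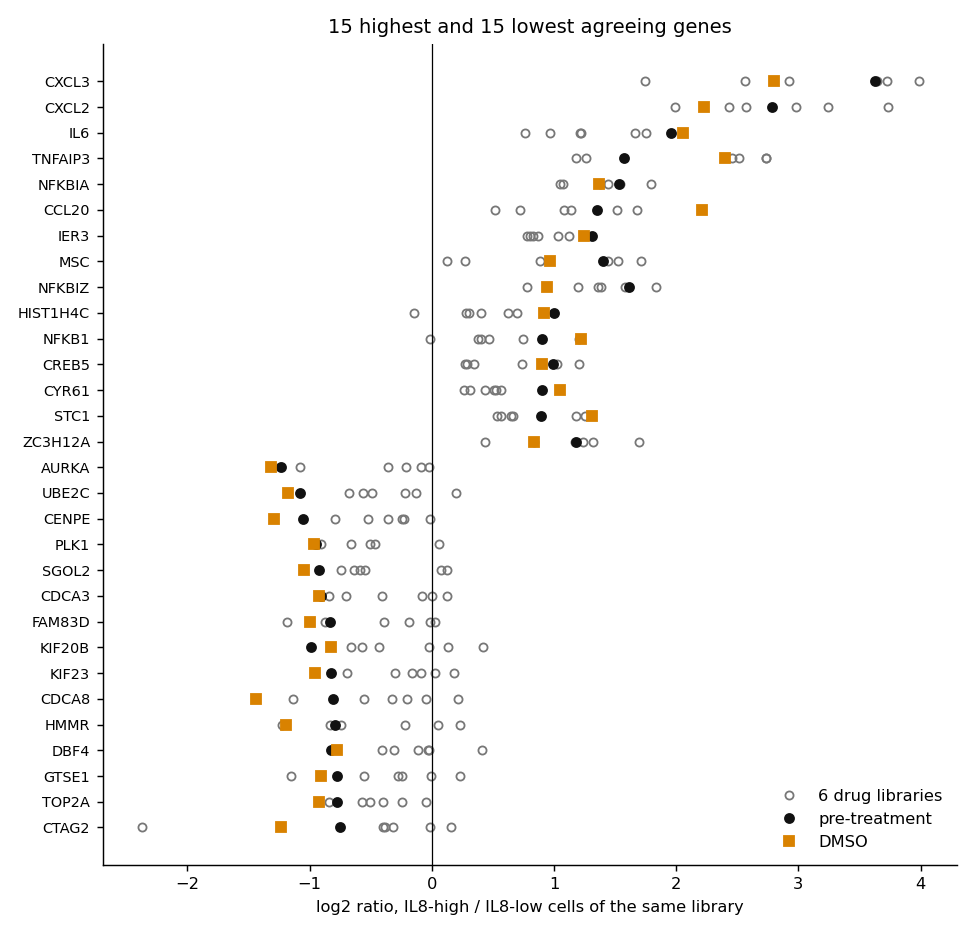
Log2 ratio of IL8-high to IL8-low cells of the same library (x axis) for the 15 highest and 15 lowest agreeing genes, with pre-treatment as filled circles, DMSO as orange squares and the 6 drug libraries as open circles. The drug libraries of CXCL3 lie between 1.74 and 3.98, all to the right of 0, whereas those of many lower genes straddle 0. For the drug libraries alone, a small constant was added to the CPM of both classes.

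For the other lists, the agreeing counts in pre-treatment and DMSO are given for completeness. They were at or near what the shares over all genes (0.685% higher and 0.662% lower) give for lists of this size. In the drug libraries some of these lists had larger shares called, as given above. Acute-phase genes (1 at 20 CPM, SAA1), matrix proteases and their inhibitors (11), hypoxia and glycolysis genes (14), NRF2 targets (17), epithelial and mesenchymal identity genes (12), interferon-stimulated genes (14) and metallothioneins (3) gave 0 in either direction. Of 12 collagens, laminins and integrins 0 agreed higher and 1 (ITGA2) lower, and of 17 ATF4 and unfolded protein response genes 1 (PPP1R15A) agreed higher. The median log2 ratio of that last list was 0.44 in pre-treatment and -0.10 in DMSO, so the libraries differed in direction. SAA1, a liver-type acute-phase protein, stood at 51.8 against 56.6 CPM in pre-treatment and 7.86 against 17.2 CPM in DMSO. These values moved with single cells. Without the richest cell of the IL8-low class the log2 ratio in pre-treatment was 0.47 rather than -0.13, and 1 cell held 37.5% of the 16 UMIs of the DMSO high class. MT2A, a metal-binding protein with near-identical relatives, stood at 4258 against 5283 CPM and 6543 against 7289 CPM. KRT8, a simple epithelial keratin, stood at 384 against 349 CPM and 455 against 402 CPM.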

How the data were processed

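Counts were deposited as UMIs for each gene in each cell. The authors had prepared the libraries with Chromium Single Cell 3' v2 chemistry, aligned reads to hg19 and counted UMIs in CellRanger, and kept genes found in at least 3 cells, which left 18955 genes. For the annotation, no release was named. Whether free RNA or doublets were removed was not stated. Doublets were not called, as a single line gives no second cell type to find them by. As alternatives, cells above the 95th percentile of UMIs were left out, or cells outside the study's filter (mitochondrial share of 1 to 15%, at least 2000 genes). Pre-treatment had 14101630 UMIs in 602 cells and DMSO 10621159 in 459.

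UMIs were summed per class and library and scaled to CPM on the class total without IL8. Ratios carry exact conditional binomial intervals, which are too narrow where UMIs vary between cells beyond counting. Intervals of cell shares treat cells as independent and leave out the spread between cultures. Phases were called per library with scanpy 1.11.5 from the S and G2/M lists of Seurat. The 6 drug libraries gave 12 class sums and 5 residual degrees of freedom in edgeR 4.0.16 (R 4.3.3, TMM), with SE from the fold change and F statistic, approximate. The classes of a library come from the same pooled cells, so the library is the pairing. These libraries differ in drug and are not replicates of a condition. The test pools its estimate of spread over genes, so SE and p-values do not show how evenly a single gene recurs among libraries. CXCL3, printed at 3.09 ± 0.16, ran from 1.74 to 3.98 by library. The steps were tested on simulated data. Genes named are IL6, the 10 largest and 10 smallest agreeing ratios (by the smaller of the 2 absolute log2 ratios), cytokine and NF-kB genes at 20 CPM and up to 3 genes of each other list, with exceptions stated. The cells, lists and tests were chosen with earlier results of these data known. Gene positions are from GENCODE for GRCh37 and promoters from RefSeq on GRCh38.p14.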

Additional observations from a re-analysis of the deposited data

How the results depend on the processing

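The count of agreeing genes follows its limits. From 30 higher and 29 lower, it became 53 and 48 with the top and bottom 10%, 16 and 9 with 30%, 59 and 52 at 10 CPM, 14 and 9 at 50 CPM, 106 and 91 at the lower of the other ratios tried and 7 and 3 at a ratio of 2. Ranked within phase, 3 lower genes agreed. With all cells without an IL8 UMI as the low class, an alternative chosen after seeing the data, 51 higher genes agreed, 24 of them among the 30. IL6 had a log2 ratio of 1.66 in pre-treatment with 30%, and in DMSO of 2.85 with 10% and 2.46 with that low class. Thinning, the study's filter and leaving out deep cells kept these counts within 1.5 times.

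In the drug libraries, 143 higher and 51 lower genes became 84 and 23 after thinning and 61 and 9 with DESeq2, and 99 lower genes were called without the filter on low counts. With no replicate block, that is without pairing the classes of a library, edgeR called 0 higher and 0 lower, with 91 genes at an unadjusted p under 0.05 and 29 of the 30 higher genes in the same direction. Leaving out 1 library at a time gave 97 to 189 higher and 24 to 107 lower, with 33 lower without JQ1+paclitaxel and 29 without palbociclib. Between 22 and 29 of the 30 higher genes were called under every setting with the block, and none was called the other way. In these libraries, 113 of 612 alternative values of 36 named genes lost the call and none reversed. In pre-treatment and DMSO, 125 of 781 alternative values moved beyond the counting interval, in 50 of 71 named genes. None reversed among the named genes that agreed. For the named genes that did not agree, reversal was not scored. In pre-treatment and DMSO there is 1 library each, so the spread between cultures is unknown, and scarce genes are limited by few UMIs.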
